A study of Homo sapiens with 12 samples.

Results

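The 9 genes described here encode chaperones and proteases that work inside human mitochondria: HSPD1, HSPE1, HSPA9, DNAJA3, TRAP1, LONP1, CLPP, CLPX and YME1L1. They were chosen by name for their location and function, with earlier results of these data known, out of 40295 gene identifiers in the count table. All 9 were found in each of the 12 libraries, and all 9 passed the filter on low counts in both cell lines.

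Most mitochondrial proteins are made in the cytosol and enter the organelle unfolded. HSPA9 (mortalin, the mitochondrial HSP70) pulls them through the inner membrane and holds them with its J-domain partner DNAJA3, and the chaperonin HSPD1 (HSP60) with its lid HSPE1 (HSP10) encloses them while they fold. TRAP1 is the HSP90 of the matrix. The AAA+ proteases LONP1 and CLPXP (the unfoldase CLPX with the peptidase CLPP) degrade damaged matrix proteins, and YME1L1 does so on the side of the inner membrane that faces the intermembrane space. HSPD1 and HSPE1 are the classical readouts of the mitochondrial unfolded protein response and are also known as heat shock genes.

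RNA was sequenced from 2 cancer cell lines. TOV-112D, an ovarian cancer line that carries the p53 substitution R175H, received the solvent DMSO, UCI-1001 or UCI-1014 for 3 h (2 libraries each). UCI-1001 is a pyrimidine trione studied as a corrector of mutant p53, and in UCI-1014 a methoxy group stands where UCI-1001 has a nitro group. Saos-2, an osteosarcoma line, was labelled either p53 null or p53 WT (3 libraries each), both with 16 h of induction. The wild-type protein came from an introduced inducible gene. Neither the study nor the labels say whether the p53-WT cells are a clone, several clones or a pool, so its libraries cannot be taken as independent clones. The study states a dose for the cells sequenced with UCI-1001, but neither it nor the labels state one for those with UCI-1014, so the compounds could not be compared at doses known to match. Nothing states that same-group libraries came from separate cultures. The p-values then measure the spread between these libraries, which may be technical.

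Library totals ran from 17762027 to 24629558 counts, and the 9 genes together took 0.269% to 0.270% of the counts in DMSO, 0.355% to 0.368% under UCI-1001, 0.603% to 0.623% under UCI-1014, 0.336% to 0.343% in p53-null and 0.199% to 0.214% in p53-WT. Markers of the labelled tissues were found in part. In the Saos-2 libraries a list of 7 osteoblast genes summed to 20.4 to 20.8 TPM (a level per transcript length) in p53-null and 36.9 to 40.7 in p53-WT, most of it SPP1 (15.4 to 38.1), with RUNX2 at 1.06 to 3.58 and SP7, ALPL and IBSP at or below 0.281. The same list summed to more in TOV-112D than in p53-null, 27.7 to 34.4 TPM, most of it COL1A1. A list of 7 epithelial and Muellerian markers summed to 3.76 to 7.44 TPM in TOV-112D, with the keratin KRT18 at 0, and to 701 to 802 in Saos-2, with KRT18 at 382 to 585. The epithelial sum, in Saos-2 most of it KRT8 and KRT18, thus ran against the labelled origins, as did PAX8. WT1 did so in p53-null, at 5.94 to 8.91 TPM against 0.727 to 1.96 in TOV-112D, and overlapped TOV-112D in p53-WT (1.95 to 2.25). EPCAM (2.12 to 3.31 TPM in TOV-112D, at most 0.258 in Saos-2) and CDH1 (0.331 to 2.07, at most 0.102) ran with the labels. The osteoblast sum ran against the labels in p53-null. In p53-WT it lay above that of TOV-112D through SPP1. COL1A1 was at 0.136 to 0.380 TPM in p53-WT against 22.2 to 28.0 in TOV-112D. RUNX2, ALPL and SP7 were also lower in p53-WT than in TOV-112D. The lines are called by their labels here. Replicate 1 of both Saos-2 lines stood apart from replicates 2 and 3: the chi-square per degree of freedom between libraries was 23.0 to 38.4 for pairs with replicate 1 and 3.09 to 3.79 for pairs without it. In TOV-112D it was 2.08 to 3.73. For Saos-2 the calls and folds of the 9 genes, their ratios and transcript calls and the counts of each list are therefore given with and without that replicate, and the other values include it. Transcripts encoded in mitochondrial DNA took 4.79% to 5.28% of counts in DMSO, 3.79% to 3.86% under UCI-1001 and 3.18% to 3.57% under UCI-1014. In Saos-2 they took 1.32% to 1.46% in p53-null and 1.48% to 1.63% in p53-WT. Whether this share moved with the genes below for a shared reason was not tested. Fewer cells and less RNA per cell cannot be told apart in such bulk samples.

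The promoters of 7 of the 9 genes were in the RefSeq table of GRCh38.p14 (250 bases before and 50 after each start); CLPP and YME1L1 had no entry. HSPD1 and HSPE1 lie head to head on chromosome 2, so they share the stretch between them. The table holds 2 starts for HSPD1, 434 bases apart, and the nearer of them to the gene body, 539 bases from the HSPE1 start, is where the main HSPD1 transcript begins. The windows below are shown because they belong to the chaperonin pair and HSPA9, the 3 genes that rose with both compounds, and to TRAP1, which did not pass the test with either. Each is written 5′ to 3′ on the strand of its gene, and capitals mark matches to a heat shock element of 2 units, searched on both strands as GAANNTTC or TTCNNGAA.
HSPD1, second start, chr2:197499791-197500090, minus strand: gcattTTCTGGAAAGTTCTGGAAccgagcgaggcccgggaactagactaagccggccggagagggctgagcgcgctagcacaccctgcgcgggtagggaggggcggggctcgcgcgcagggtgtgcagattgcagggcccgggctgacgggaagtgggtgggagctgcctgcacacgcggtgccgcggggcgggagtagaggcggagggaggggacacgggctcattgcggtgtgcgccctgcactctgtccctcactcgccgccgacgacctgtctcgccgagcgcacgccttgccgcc
HSPE1, chr2:197500129-197500428, plus strand: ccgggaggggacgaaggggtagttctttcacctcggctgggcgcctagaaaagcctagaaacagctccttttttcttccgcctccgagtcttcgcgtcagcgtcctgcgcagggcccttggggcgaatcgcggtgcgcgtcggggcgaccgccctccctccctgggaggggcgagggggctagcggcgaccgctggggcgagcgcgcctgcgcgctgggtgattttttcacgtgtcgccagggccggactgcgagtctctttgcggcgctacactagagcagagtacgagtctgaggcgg
HSPA9, chr5:138575352-138575651, minus strand: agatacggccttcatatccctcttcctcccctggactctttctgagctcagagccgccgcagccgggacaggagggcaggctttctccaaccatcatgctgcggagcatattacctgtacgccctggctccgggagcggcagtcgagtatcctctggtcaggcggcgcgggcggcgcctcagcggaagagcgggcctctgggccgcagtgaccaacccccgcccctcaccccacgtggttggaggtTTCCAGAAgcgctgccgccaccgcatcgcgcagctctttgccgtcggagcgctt
TRAP1, chr16:3717475-3717774, minus strand: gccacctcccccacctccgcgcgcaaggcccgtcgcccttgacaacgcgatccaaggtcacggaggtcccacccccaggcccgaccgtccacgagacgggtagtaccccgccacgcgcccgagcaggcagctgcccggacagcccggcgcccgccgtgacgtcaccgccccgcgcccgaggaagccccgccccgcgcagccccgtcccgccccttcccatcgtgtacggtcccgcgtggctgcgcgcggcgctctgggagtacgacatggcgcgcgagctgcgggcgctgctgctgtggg

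The HSPD1 window held 3 overlapping matches in 1 run, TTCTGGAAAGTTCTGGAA at chr2:197500068-197500085, 245 to 228 bases before that start. The run lies 294 to 311 bases before the HSPE1 start and so outside the HSPE1 window, which held no match, as did the window of the other HSPD1 start. HSPA9 held 1 match, from 4 bases before to 3 bases after its start. No match was found in the windows of TRAP1, LONP1, CLPX or DNAJA3. Of all 35116 promoters in the table, 13.5% held the 2-unit form, and 0.49% held 3 alternating units (GAANNTTCNNGAA or TTCNNGAANNTTC, a form searched after the sequences had been seen), and of the 7 member genes with a window HSPD1 alone held it. For comparison, 12 of the 24 promoters of the cytosolic heat shock genes held the 2-unit form, in 11 of the 16 genes with an entry. The C/EBP-ATF element TGATGNAA, in 3.62% of all promoters, and the p53 decamer, in 6.63%, matched none of the 9 windows of these 7 genes. The CCAAT box, in 34.6% of all, was in those of CLPX and DNAJA3, and the GC box GGGCGG, in 45.0% of all, was in 8 of the 9 windows. A match is a string of letters, and binding was not measured.

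With UCI-1001, the chaperonin pair and HSPA9 rose and none of the 9 genes was called lower. edgeR's quasi-likelihood test called 3 of the 9 genes higher at an adjusted p under 0.05, where 9.39% of all 14177 genes tested were called higher and 15.7% in either direction. None was called lower, also at an unadjusted p under 0.05, by DESeq2 or by limma on TPM, against 6.36% of all genes. With UCI-1014, 6 of the 9 were called higher (23.7% of all genes) and CLPP lower (23.4% of all genes), with 47.1% of all genes called. The median log2 fold change of the 9 genes reached 0.04 under UCI-1001 and 0.24 under UCI-1014, beside 0.00 and -0.02 over all genes tested. Both comparisons share the DMSO libraries. At the study's own thresholds, which add an absolute log2 fold change over 1, none of the 9 passed with UCI-1001 (1.3% of all genes), and HSPD1 and HSPE1 passed with UCI-1014 (5.49%). Groups of 2 libraries often fail to overlap: with UCI-1001, 4 of the 9 lay wholly above DMSO (29.4% of all genes) and 2 wholly below it (28.0%), and with UCI-1014 the 7 called genes did so, 6 above (35.4%) and 1 below (38.0%).

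**Figure D1:**
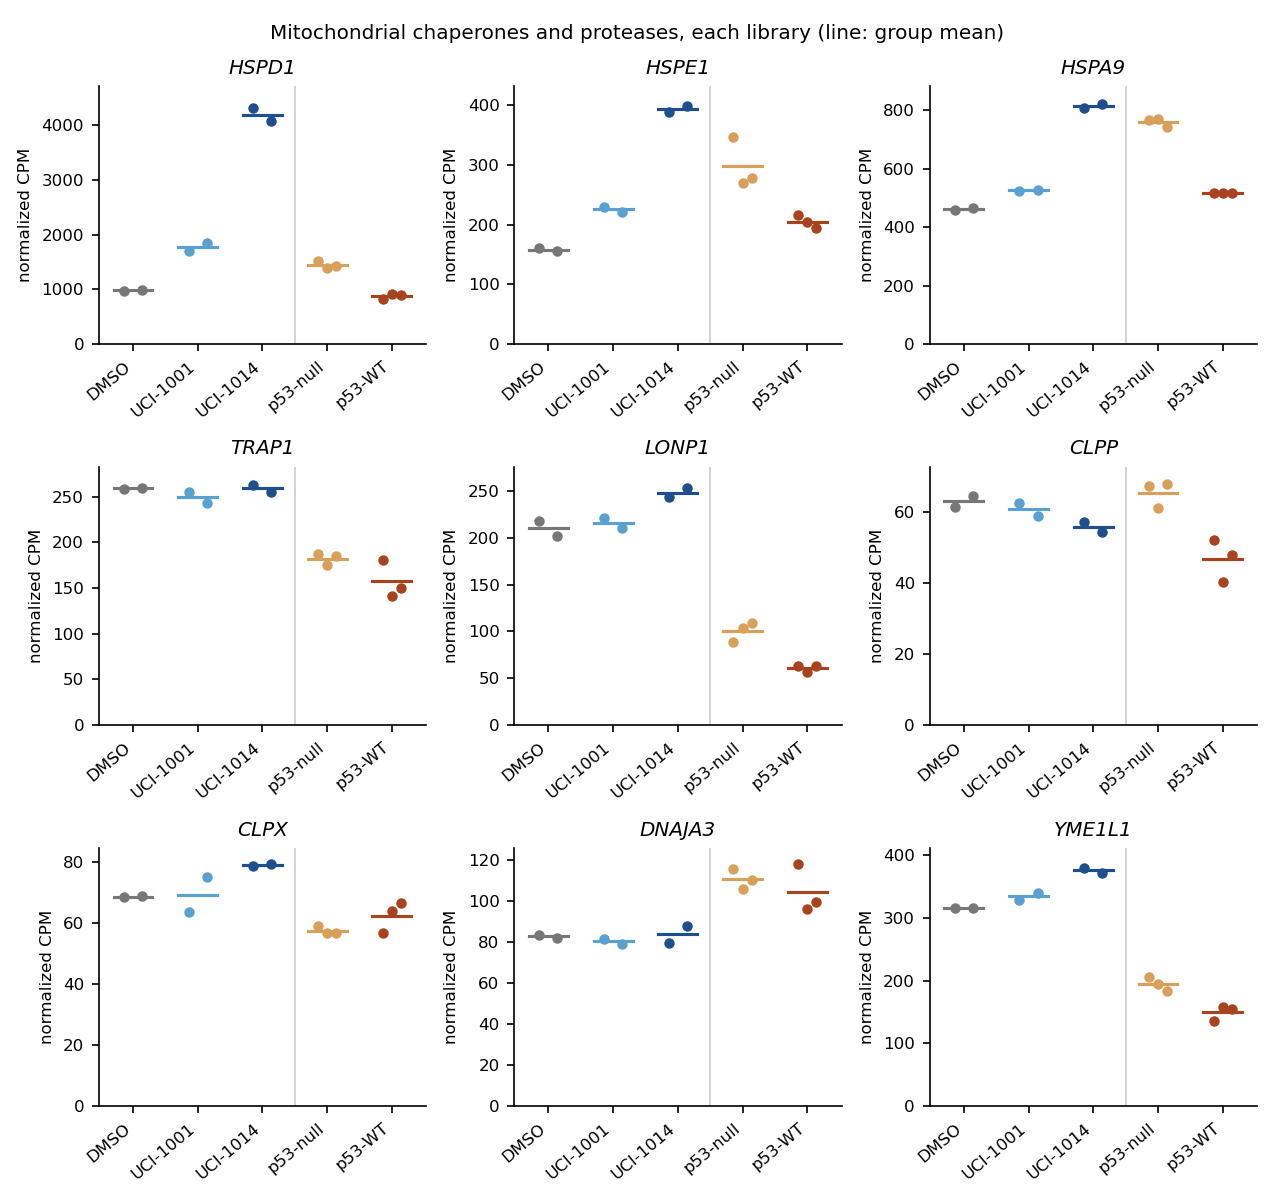
Normalized counts in CPM (counts scaled to a common library size, vertical axes from 0) of each of the 9 genes in each of the 12 libraries, with the group mean as a line; TOV-112D groups stand left of the grey line and Saos-2 groups right of it. HSPD1 reached 4072 to 4318 CPM with UCI-1014 from 975 to 995 with DMSO, while TRAP1 stayed between 243 and 263 in the 6 TOV-112D libraries.

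HSPD1, the barrel of the chaperonin (ENSG00000144381, chr2:197486584-197516737, minus strand), was counted at 975 and 995 CPM (counts scaled to a common library size) in the DMSO libraries, 1707 and 1848 with UCI-1001, and 4318 and 4072 with UCI-1014. The 3 groups did not overlap. UCI-1001 raised it 1.81-fold (log2 fold change 0.85 ± 0.04, SE, adjusted p = 5.67e-09) and UCI-1014 4.26-fold (2.09 ± 0.04, adjusted p = 5.45e-14). Among all genes tested it ranked 18th by p with UCI-1001 and 10th with UCI-1014, but 369th and 183rd by the size of the rise.

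HSPE1, the lid of the chaperonin (ENSG00000115541, chr2:197500140-197503449, plus strand), stood at 160 and 156 CPM with DMSO, 229 and 221 with UCI-1001, and 387 and 399 with UCI-1014. These groups were separate too. The rise was 1.43-fold with UCI-1001 (log2 fold change 0.51 ± 0.04, adjusted p = 6.45e-07) and 2.49-fold with UCI-1014 (1.31 ± 0.04, adjusted p = 2.65e-12). Reads assigned to the HSPE1-MOB4 readthrough gene, which shares HSPE1 exons, came to 1.46% to 5.06% of the HSPE1 counts in the 12 libraries, and reads assigned to HSPD1 pseudogenes to at most 0.160% of those of HSPD1.

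HSPA9 (ENSG00000113013, chr5:138553756-138575675, minus strand) was at 460 and 465 CPM with DMSO, 525 and 527 with UCI-1001, and 807 and 823 with UCI-1014. The step with UCI-1001 was small beside that with UCI-1014, although the libraries of each group lay close together. On the log2 scale HSPA9 gained 0.18 ± 0.03 under UCI-1001 (1.14-fold, adjusted p = 0.00172) and 0.82 ± 0.03 under UCI-1014 (1.76-fold, adjusted p = 8.31e-11). The call with UCI-1001 was lost without DMSO replicate 1 (adjusted p = 0.0593) and when all 12 libraries shared 1 estimate of the spread (adjusted p = 0.481).

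DNAJA3, the J-domain partner that delivers substrates to HSPA9, did not follow it. It was counted under 2 identifiers (ENSG00000103423 at chr16:4425805-4456775, and ENSG00000276726 on an alternative sequence) that held identical counts in every library, and their sum is used here. DNAJA3 had 83.5 and 82.2 CPM with DMSO, 81.4 and 79.2 with UCI-1001, and 79.4 and 88.0 with UCI-1014. DNAJA3 had a log2 fold change of -0.05 (2 SE interval -0.15 to 0.06, adjusted p = 0.651) with UCI-1001 and 0.02 (-0.09 to 0.13, adjusted p = 0.825) with UCI-1014.

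TRAP1, the matrix HSP90 (ENSG00000126602, chr16:3651639-3717553, minus strand), was the other chaperone that did not pass the test with either compound. Its 6 values were 259 and 259 CPM with DMSO, 255 and 243 with UCI-1001, and 263 and 255 with UCI-1014. The intervals were narrow, from -0.13 to 0.02 on the log2 scale with UCI-1001 (adjusted p = 0.381) and from -0.08 to 0.08 with UCI-1014 (adjusted p = 0.993).

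Among the proteases the differences were small. LONP1, the main ATP-dependent protease of the matrix (ENSG00000196365, chr19:5691834-5720572, minus strand), was at 218 and 202 CPM with DMSO, 221 and 211 with UCI-1001, and 243 and 253 with UCI-1014. It overlapped DMSO with UCI-1001 (log2 fold change 0.04 ± 0.04, adjusted p = 0.644) and rose 1.18-fold with UCI-1014 (0.24 ± 0.04, adjusted p = 0.000469). YME1L1 (ENSG00000136758, chr10:27110111-27155266, minus strand), which trims and degrades inner membrane proteins such as OPA1, had 316 and 315 CPM with DMSO, 329 and 340 with UCI-1001, and 379 and 371 with UCI-1014. Its log2 fold change of 0.08 ± 0.04 with UCI-1001 did not pass the test (adjusted p = 0.138), and with UCI-1014 it rose 1.19-fold (0.25 ± 0.04, adjusted p = 4.57e-05). The UCI-1014 calls of LONP1 and YME1L1 were lost in the fit of all 12 libraries (adjusted p = 0.266 and 0.177).

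CLPX and CLPP, the subunits of a single protease, were called in opposite directions with UCI-1014. CLPX (ENSG00000166855, chr15:65148219-65185342, minus strand), the unfoldase, was at 68.5 and 68.7 CPM with DMSO, 63.5 and 74.9 with UCI-1001, and 78.8 and 79.4 with UCI-1014. CLPP (ENSG00000125656, chr19:6361531-6370242, plus strand), the peptidase, was at 61.5 and 64.4 CPM with DMSO, 62.6 and 59.0 with UCI-1001, and 57.0 and 54.3 with UCI-1014. UCI-1001 overlapped DMSO for both genes, with adjusted p = 0.932 for CLPX and 0.626 for CLPP. With UCI-1014, CLPX had a log2 fold change of 0.20 ± 0.07 (adjusted p = 0.0204) and CLPP of -0.18 ± 0.06 (adjusted p = 0.0220). Both calls depended on the processing. DESeq2 gave an adjusted p = 0.0589 for CLPX and 0.138 for CLPP, the fit of all 12 libraries 0.367 and 0.155, and limma on TPM a log2 fold change of only 0.05 for CLPX (adjusted p = 0.764). For CLPP limma on TPM kept the call (-0.19, adjusted p = 0.0390). Each call was lost without either DMSO replicate and without UCI-1014 replicate 2.

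**Figure D2:**
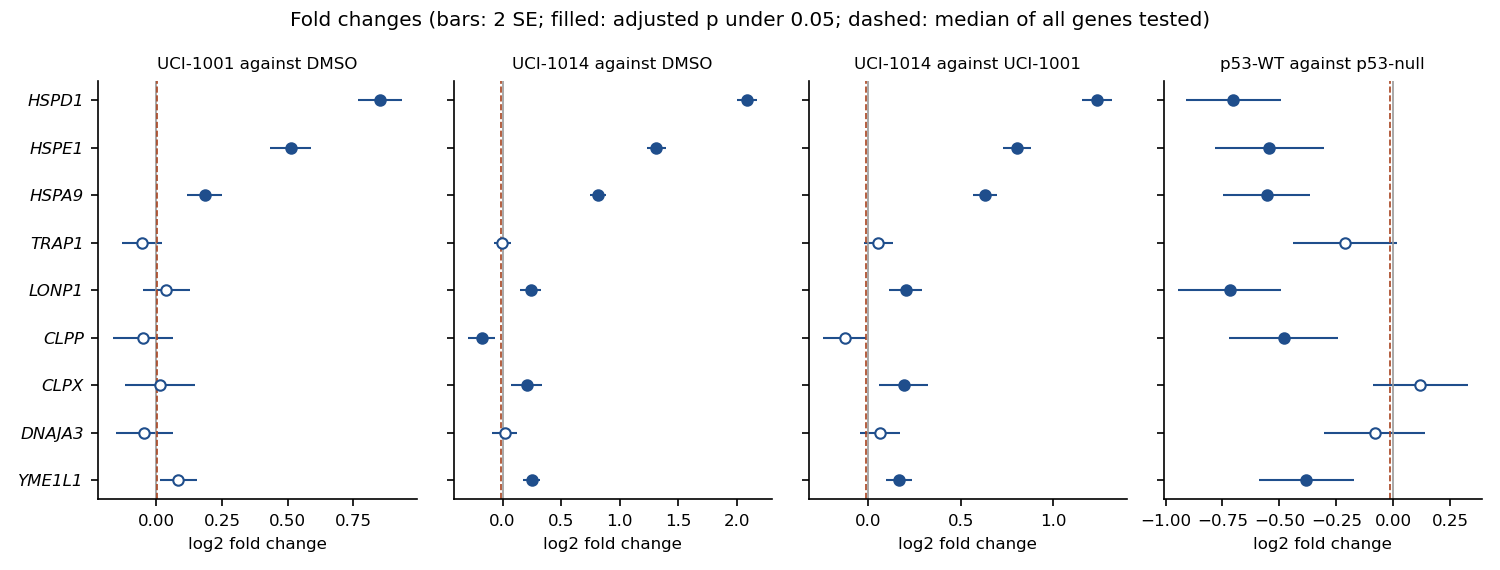
Log2 fold changes of the 9 genes in the 4 comparisons (horizontal axes, each panel with its own scale), with bars of 2 SE, filled points for an adjusted p under 0.05 and a dashed line at the median of all genes tested. HSPD1, HSPE1 and HSPA9 lead the 3 TOV-112D panels in that order, from 0.18 for HSPA9 with UCI-1001 to 2.09 for HSPD1 with UCI-1014, and in p53-WT against p53-null 8 of the 9 points lie below 0.

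UCI-1014 was also set directly against UCI-1001. The same 6 genes that UCI-1014 raised over DMSO were called higher than with UCI-1001, against 17.1% of all genes called higher and 31.1% called in either direction, and none was called lower by edgeR, DESeq2 or limma on TPM (CLPP alone had an unadjusted p under 0.05; 13.9% of all genes were called lower). HSPD1 was 2.36-fold higher (log2 fold change 1.24 ± 0.04, adjusted p = 9.70e-11), HSPE1 1.74-fold (0.80 ± 0.04, adjusted p = 1.78e-09) and HSPA9 1.55-fold (0.63 ± 0.03, adjusted p = 4.91e-09). LONP1, CLPX and YME1L1 differed by 0.20 ± 0.04, 0.19 ± 0.07 and 0.17 ± 0.04 on the log2 scale (adjusted p = 0.00319, 0.0397 and 0.00269). The interval for TRAP1 was -0.02 to 0.13, for DNAJA3 -0.05 to 0.17 and for CLPP -0.24 to -0.01. The groups did not overlap for 7 genes that were higher (31.5% of all genes) and for CLPP, which was lower (32.2%), and HSPD1 alone passed the study's thresholds (1.84%). The CLPX call was lost in 10 of 14 alternatives, those of LONP1 and YME1L1 in 2 each. Whether the methoxy compound acts more strongly at an equal dose was not tested.

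The Saos-2 libraries compared p53-WT with p53-null. With all 6 libraries, 6 of the 9 genes were called lower in p53-WT, where 33.0% of all 14275 genes tested were called lower and 66.5% in either direction. None was called higher, also at an unadjusted p under 0.05, by DESeq2 or by limma on TPM, against 33.5% of all genes. The median log2 fold change of the 9 was -0.48, beside -0.01 over all genes. Without replicate 1 of both lines all 9 were called, 8 lower (36.7% of all genes) and CLPX higher (37.5%), and the median of the 9 was -0.46. Without that replicate 74.2% of all genes were called. The groups of 3 did not overlap for the 6 called genes (35.7% of all genes lay lower) and for none that was higher (35.0%), and at the study's adjusted p under 0.001 HSPD1, HSPA9 and LONP1 passed (40.2% of all genes), or 7 of the 9 without replicate 1 of both lines (54.5%). The spread was wider here than in TOV-112D: the biological coefficient of variation was 12.3% against 3.59%.

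HSPD1 was at 1512, 1383 and 1433 CPM in p53-null and at 833, 924 and 902 in p53-WT. The groups were well apart, and the log2 fold change was -0.70 ± 0.10 (adjusted p = 0.000114), or -0.62 ± 0.05 without replicate 1. HSPE1 was at 346, 270 and 278 CPM in p53-null, where replicate 1 was the highest, and at 216, 204 and 194 in p53-WT. It fell by 0.54 ± 0.12 on the log2 scale (adjusted p = 0.00188), and by 0.46 ± 0.05 without replicate 1. HSPA9 went from 767, 770 and 743 CPM to 516, 518 and 516, a log2 fold change of -0.56 ± 0.10 (adjusted p = 0.000349), or -0.54 ± 0.05 without replicate 1.

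LONP1 was also lower in p53-WT. It was at 88.2, 104 and 109 CPM in p53-null and at 62.6, 57.2 and 62.8 in p53-WT, a log2 fold change of -0.72 ± 0.11 (adjusted p = 0.000184), or -0.82 ± 0.07 without replicate 1. CLPP fell from 67.3, 61.0 and 67.8 CPM to 52.2, 40.4 and 47.8 (-0.48 ± 0.12, adjusted p = 0.00411), and YME1L1 from 206, 194 and 184 CPM to 136, 158 and 154 (-0.38 ± 0.10, adjusted p = 0.00722). Without replicate 1 these were -0.54 ± 0.09 and -0.27 ± 0.05.

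For the other 3 genes the call changed without replicate 1. TRAP1 had 187, 175.2 and 185 CPM in p53-null and 181, 141 and 150 in p53-WT, where replicate 1 lay within the p53-null range; its log2 fold change was -0.21 ± 0.11 (adjusted p = 0.121), and without replicate 1 of both lines -0.30 ± 0.06 (adjusted p = 0.000422). DNAJA3 had 116, 106 and 110 CPM in p53-null and 118, 96.1 and 99.3 in p53-WT, with -0.08 ± 0.11 (adjusted p = 0.531) and then -0.14 ± 0.06 (adjusted p = 0.0410). CLPX had 59.1, 56.8 and 56.6 CPM in p53-null and 56.7, 64.0 and 66.4 in p53-WT, with 0.12 ± 0.10 (adjusted p = 0.342) and then 0.21 ± 0.06 (adjusted p = 0.00901). That call turns with the scale: in TPM the CLPX mean without replicate 1 was 33.6 in p53-null and 30.2 in p53-WT, and limma on TPM with all 6 libraries gave -0.08 (adjusted p = 0.542), or 0.15 relative to the median of all genes in that fit.

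HSPD1, HSPE1 and HSPA9 were thus higher with both compounds in TOV-112D and lower in p53-WT in Saos-2. CLPP was lower with UCI-1014 and in p53-WT. The cell lines, times and perturbations differ between these comparisons, and their difference was not tested.

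On the TPM scale, which allows levels of different genes to be set side by side, HSPD1 had the highest mean of the 9 genes in every group. With DMSO it was at 712 ± 5.25 TPM (SD, n = 2), followed by HSPE1 at 348 ± 10.4, HSPA9 at 274 ± 2.46, TRAP1 at 226 ± 12.8, YME1L1 at 133 ± 1.90, LONP1 at 115 ± 3.60, CLPP at 111 ± 1.32, DNAJA3 at 59.3 ± 3.61 and CLPX at 51.9 ± 0.02. Neighbours in this order did not overlap between libraries, and the order was the same with both compounds. HSPD1 reached 1295 ± 69.6 TPM in the UCI-1001 libraries and 2992 ± 187 in those of UCI-1014, where HSPE1 stood at 507 ± 10.4 and 864 ± 7.56. Most of the CLPX level came from transcripts not annotated as protein coding: the protein-coding ones alone gave 13.4 TPM in DMSO, while for HSPD1 they gave 683.

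In p53-null the first 4 places were the same, with HSPD1 at 889 ± 31.1 TPM (n = 3), HSPE1 at 726 ± 50.9, HSPA9 at 412 ± 37.2 and TRAP1 at 127 ± 8.09. CLPP came next at 109 ± 3.06, and LONP1 took the eighth place at 52.6 ± 8.65. In p53-WT HSPD1 (474 ± 77.2 TPM) and HSPE1 (459 ± 18.7) overlapped, as did DNAJA3 with YME1L1 and CLPX with LONP1, the last at 27.4 ± 2.32. The first overlap came from replicate 1. In replicates 2 and 3 HSPD1 was at 529 and 507 TPM (mean 518) and HSPE1 at 476 and 463 (mean 469), without overlap. Transcript values could be joined to genes for 84.6% to 97.5% of the YME1L1 counts and 96.1% to 99.2% of those of HSPA9. The TPM levels of these 2 genes are therefore low, by amounts that differ between libraries. For YME1L1 the lowest share was that of p53-WT replicate 1, where it was at 34.0 TPM, against 53.2 and 49.9 in replicates 2 and 3. For the other 7 genes the join held at least 99.6%.

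**Figure D3:**
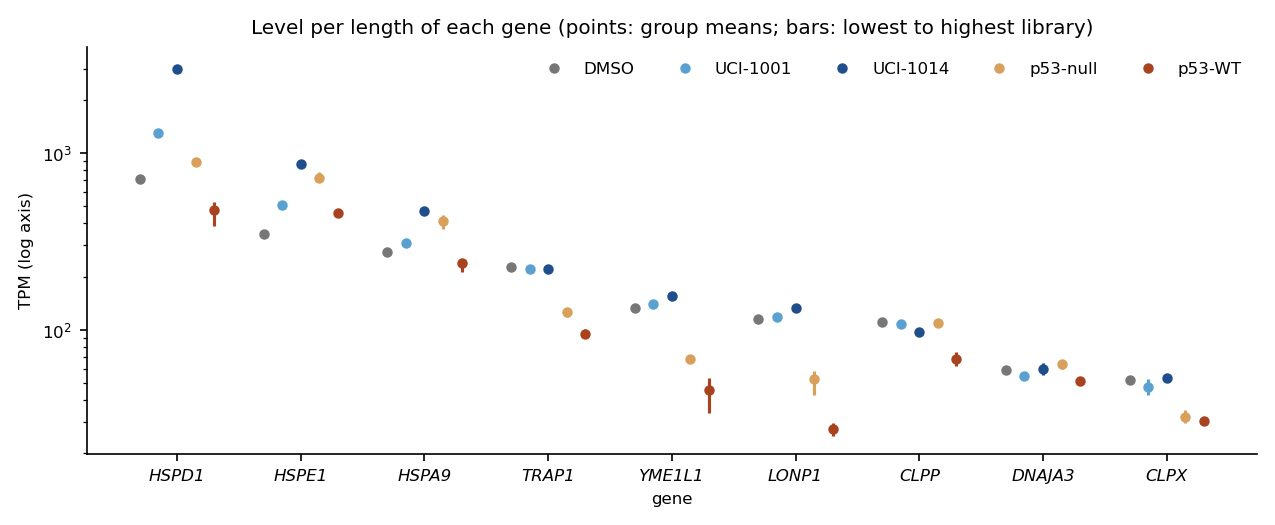
TPM (log axis) of each gene by group, with group means as points and bars from the lowest to the highest library; genes are ordered by their DMSO mean. HSPD1 leads in all 5 groups, from 474 TPM in p53-WT to 2992 with UCI-1014, and LONP1 lies at 115 to 133 in TOV-112D but at 27.4 to 52.6 in Saos-2.

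Because HSPD1 rose more than HSPE1, the ratio within the pair moved. The TPM ratio of HSPD1 to HSPE1 stood at 2.04 in DMSO, 2.55 in UCI-1001 and 3.46 in UCI-1014, with log2 ratios of 1.03 ± 0.03, 1.35 ± 0.11 and 1.79 ± 0.08 (SD, n = 2) and no overlap between groups. An exact two-sided permutation test gave p = 0.333 for each pair of groups, the smallest value that 2 against 2 libraries allow, so this test could not pass. In Saos-2 the ratio was lower, 1.23 in p53-null and 1.02 in p53-WT, and these groups overlapped (exact permutation p = 0.300). Without replicate 1 it was 1.30 and 1.10, with no overlap between 2 and 2 libraries. The TPM ratio of CLPX to CLPP stood at 0.467 in DMSO, 0.440 in UCI-1001 and 0.551 in UCI-1014, and at 0.295 in p53-null and 0.449 in p53-WT, without overlap in the last pair (exact permutation p = 0.100, the smallest that 3 against 3 allow). Most of the CLPX level is not from protein-coding transcripts, as said above. In counts the ratio was 1.09 in DMSO, 1.14 in UCI-1001 and 1.42 in UCI-1014, so the step with UCI-1001 turned with the unit. UCI-1001 overlapped DMSO in both units. In TPM, DNAJA3 to HSPA9 went from 0.216 in DMSO to 0.177 and 0.128 under UCI-1001 and UCI-1014 and stood at 0.155 in p53-null and 0.217 in p53-WT, also without overlap (exact permutation p = 0.333, 0.333 and 0.100). Without replicate 1 the 2 Saos-2 values were 0.302 and 0.441 for CLPX to CLPP and 0.153 and 0.206 for DNAJA3 to HSPA9.

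The deposited transcript estimates assign most of the HSPD1 rise to 1 transcript. Transcript HSPD1-202, which begins at the start whose promoter holds the heat shock run, was estimated at 848 and 842 CPM with DMSO, 1605 and 1718 with UCI-1001, and 4158 and 3900 with UCI-1014. HSPD1-201, which begins 434 bases further from the gene body and 105 bases from the HSPE1 start, was at 108 and 136, 68.3 and 91.6, and 49.3 and 90.5 in the same order. Thus HSPD1-202 rose by 2.26 ± 0.05 on the log2 scale with UCI-1014 (adjusted p = 0.000808), while HSPD1-201 had -0.79 ± 0.33 (adjusted p = 0.300). The share of HSPD1 counts given to HSPD1-202 came to 84.9% to 87.2% in DMSO, to 93.3% to 94.3% under UCI-1001 and to 96.1% to 96.7% under UCI-1014. These fits used edgeR on all 51935 transcripts tested in TOV-112D, of which 4.67% were called with UCI-1014. Of the 31 transcripts of the 9 genes with 100 estimated counts in some library, 10 were among them, all higher. HSPD1-208, HSPD1-210, HSPA9-209 and HSPA9-211, which were among these 10, reached 100 counts only with UCI-1014, as did HSPD1-209, which was not called. HSPD1-213, also among the 10, reached 100 counts only with UCI-1001 and UCI-1014. The filter thus admitted these transcripts through the groups where they are high, and the 10 cannot be set against the 4.67%. With UCI-1001, HSPD1-202 (0.99 ± 0.05, adjusted p = 0.0250) and HSPE1-201 (0.52 ± 0.04, adjusted p = 0.0291) were called, where 0.169% of all transcripts were. UCI-1014 against UCI-1001 called 4 of the 31, all higher, where 0.66% of all transcripts were called. For the same reason these 4 cannot be set against that share.

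Among the transcripts called with UCI-1014 were 3 of HSPD1 annotated as retaining an intron, HSPD1-210, HSPD1-211 and HSPD1-213. Of these, HSPD1-210 passed the count filter only through UCI-1014, the group where it is high, so its call adds nothing to the tally. HSPD1-211 passed it in a DMSO library too. HSPD1-213 passed it only with UCI-1001 and UCI-1014, the groups where it is high, so its call adds nothing to the tally either. HSPD1-213 had 3.01 and 2.79 estimated CPM with DMSO, 7.18 and 6.71 with UCI-1001, and 24.5 and 19.0 with UCI-1014 (log2 fold change 2.91 ± 0.19, adjusted p = 0.00432). The retained-intron transcripts HSPA9-209 and HSPA9-211 had log2 fold changes of 2.05 ± 0.35 and 1.75 ± 0.25 (adjusted p = 0.0454 and 0.0291). Both also passed the count filter only through UCI-1014, so they are not counted as further cases of a rise. The retained-intron transcripts named here stayed small: HSPD1-213 took 0.468% to 0.571% of HSPD1 counts with UCI-1014, up from 0.281% to 0.310% with DMSO.

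The share of a gene's counts given to a transcript also differed between the cell lines, most visibly for HSPE1 and LONP1. HSPE1-202 took 33.9% to 49.8% of HSPE1 counts there and 1.20% to 2.70% in TOV-112D, and in p53-WT it was HSPE1-201 that was lower (-0.77 ± 0.12, adjusted p = 0.00786) while HSPE1-202 had -0.16 ± 0.14 (adjusted p = 0.481). LONP1-203 took 60.9% to 75.1% of LONP1 counts in Saos-2 and 1.15% to 10.8% in TOV-112D. Smaller gaps without overlap were seen for CLPP-201 (67.9% to 76.8% in Saos-2, 84.5% to 90.2% in TOV-112D) and CLPX-204 (21.0% to 27.3% and 10.3% to 16.7%), among others. Of all 47435 transcripts tested in Saos-2, 22.0% were called, and 4 of the 30 of these genes were, all lower. Without replicate 1 of both lines 5 of the 30 were lower and 1, CLPX-201, was higher (19.8% of all transcripts called), with HSPE1-201 at -0.62 ± 0.07 (adjusted p = 0.0135) and HSPE1-202 at -0.13 ± 0.05 (adjusted p = 0.179). The estimates split reads that several transcripts share, and that uncertainty is not in the values.

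**Figure D4:**
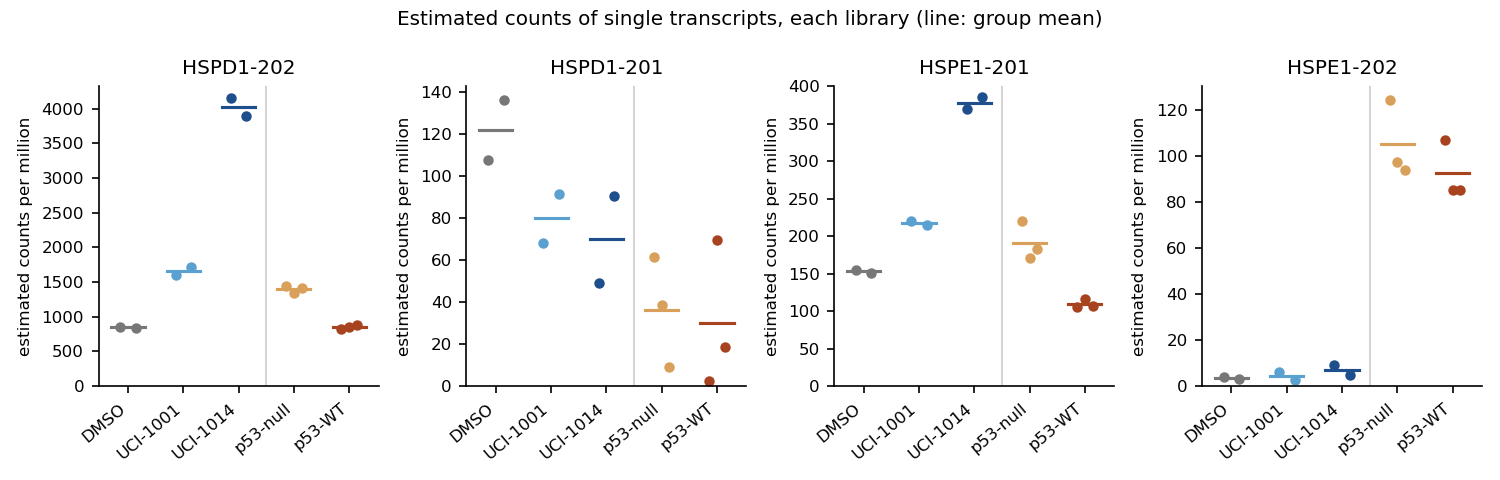
Estimated counts in CPM (vertical axes from 0) of HSPD1-202, HSPD1-201, HSPE1-201 and HSPE1-202 in each library, with group means as lines. HSPD1-202 climbs from 842 to 848 with DMSO to 3900 to 4158 with UCI-1014 while HSPD1-201 stays at or below 136, and HSPE1-202 is at most 9.24 in TOV-112D but 85.2 or more in Saos-2.

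Genes that work with the 9 were followed as lists. Their counts stand beside those of all genes tested, of which UCI-1001 raised 9.39% and lowered 6.36%, UCI-1014 raised 23.7% and lowered 23.4%, and 33.5% were higher and 33.0% lower in p53-WT (37.5% and 36.7% without replicate 1), and a list with shares near these shows nothing of its own. Of 8 HSPA9 partners, UCI-1014 raised 2 and lowered 3. The nucleotide exchange factor GRPEL2 rose from 34.8 to 74.6 mean CPM (log2 fold change 1.10 ± 0.08, adjusted p = 2.95e-08) and TIMM44, which tethers HSPA9 to the import channel, from 66.7 to 119 (0.84 ± 0.05, adjusted p = 1.33e-08), whereas GRPEL1, the other exchange factor, was lower (-0.33 ± 0.07, adjusted p = 0.000751), as were DNLZ, a binding partner that keeps HSPA9 soluble (-0.44 ± 0.11), and PAM16 (-0.28 ± 0.08). UCI-1001 called the same way GRPEL2 (0.43 ± 0.08), TIMM44 (0.26 ± 0.06) and GRPEL1 (-0.20 ± 0.06, adjusted p = 0.0487). In p53-WT 3 of the 7 tested were lower, GRPEL2 (-1.25 ± 0.14), PAM16 (-0.76 ± 0.13) and TIMM44 (-0.49 ± 0.13), and none was higher by edgeR, also at an unadjusted p under 0.05, by DESeq2 or by limma on TPM; without replicate 1 of both lines 1 was higher and 4 were lower.

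Of the other 15 mitochondrial proteases and peptidases, UCI-1001 raised 2, XPNPEP3 (0.35 ± 0.09) and the processing peptidase subunit PMPCB (0.18 ± 0.05), and lowered none by edgeR, DESeq2 or limma on TPM, with 3 at an unadjusted p under 0.05. UCI-1014 raised 3 and lowered 3, among them METAP1D (0.70 ± 0.11) and the m-AAA subunit SPG7 (-0.36 ± 0.06). The list medians were 0.03 and -0.02, against 0.04 and 0.24 for the 9 genes. In p53-WT 4 were higher and 5 lower, with LACTB at 0.79 ± 0.13 and IMMP1L at -0.86 ± 0.17; without replicate 1 of both lines 6 were higher and 5 lower.

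Of 7 genes of inner membrane quality control, both compounds raised CLPB, a disaggregase (0.25 ± 0.07 and 0.65 ± 0.07), and GHITM (0.18 ± 0.05 and 0.55 ± 0.05), and UCI-1014 lowered 3, with the prohibitin PHB at -0.29 ± 0.04. UCI-1001 lowered none of the 7, also at an unadjusted p under 0.05 or by the other tools. In p53-WT 1 was higher, SIRT3 (0.79 ± 0.13), and 2 were lower, BCS1L (-0.59 ± 0.12) and CLPB (-0.47 ± 0.11); without replicate 1 of both lines 2 were higher and 5 lower.

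Of 20 genes of the import machinery, 10 were lower with UCI-1014, 1 was higher and 9 did not pass the test, with a median of -0.23. TOMM6, a small subunit of the outer membrane channel, went from 123 to 60.0 mean CPM (-1.04 ± 0.06, adjusted p = 1.93e-09), with TIMM8A and TOMM7 both at -0.44 ± 0.10. UCI-1001 lowered 3 of them, TOMM6 (-0.29 ± 0.05), TIMM50 (-0.14 ± 0.04) and TOMM40 (-0.12 ± 0.04), and raised none by any of the 3 tools. In p53-WT 11 of the 20 were lower and 3 higher, with the channel TOMM40 at -1.59 ± 0.10, TIMM10 at -1.21 ± 0.17 and TOMM5 at -1.18 ± 0.13; without replicate 1 of both lines 10 were lower and 5 higher. Of 34 matrix and inner membrane housekeeping genes, UCI-1014 lowered 17 and raised 1 (median -0.11), UCI-1001 lowered SDHA alone (-0.15 ± 0.04) and raised none (1 at an unadjusted p under 0.05, none by DESeq2 or limma on TPM), and in p53-WT 13 were higher and 4 lower (median 0.19), with SDHA at 1.40 ± 0.11. Without replicate 1 of both Saos-2 lines those counts were 18 and 6.

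Of 10 regulators tied to the mitochondrial stress response, 4 were higher and 1 lower with UCI-1001, while UCI-1014 raised 5 and lowered 3. DDIT3 (CHOP) reached a mean of 107 CPM with UCI-1001 (3.42 ± 0.15) and 275 with UCI-1014 (4.78 ± 0.14), CEBPB went from 19.0 to 59.5 and 146 (1.65 ± 0.08 and 2.94 ± 0.07), and ATF4 from 155 to 211 and 347 (0.44 ± 0.04 and 1.17 ± 0.04). ATF5, a regulator of HSPD1 and LONP1 in that response, was lower with both (-0.24 ± 0.07 and -0.25 ± 0.07, adjusted p = 0.0302 and 0.00930). In p53-WT 4 were higher, CEBPB and the kinase EIF2AK4 most (1.54 ± 0.13 and 1.54 ± 0.10), and 3 were lower, ATF5 among them (-0.98 ± 0.10, adjusted p = 5.88e-06). Without replicate 1 of both lines 6 were higher and 3 lower.

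As comparison lists, the cytosolic heat shock genes and the chaperones of the endoplasmic reticulum were counted in the same way. All 17 cytosolic heat shock genes rose with UCI-1001 and all 17 rose further with UCI-1014, with medians of 1.10 and 2.22; HSPA1A (4.97 ± 0.06 and 6.81 ± 0.06), HSPA1B (5.01 ± 0.08 and 6.75 ± 0.08) and DNAJB1 (3.81 ± 0.10 and 5.42 ± 0.10) led them. The HSPD1 value of 2.09 with UCI-1014 lay near that list's median, within its range of 1.12 to 6.81, HSPE1 (1.31) lay inside it as well, and HSPA9 (0.82) below it. HSPA1A and HSPA1B are near-identical copies, so reads may be split between them. Of 14 endoplasmic reticulum chaperones UCI-1001 changed none (1 at an unadjusted p under 0.05, none by DESeq2 or limma on TPM), and UCI-1014 raised 4 and lowered 3, with DNAJB9 at 0.99 ± 0.14. In p53-WT the heat shock genes split, 5 higher and 10 lower with a median of -0.47, from HSPB1 at 2.13 ± 0.14 downwards, and of the 14 endoplasmic reticulum genes 2 were higher and 8 lower (median -0.30), with HSP90B1 at -0.79 ± 0.10. Without replicate 1 of both lines these counts were 6 and 11 for the heat shock genes and 4 and 8 for those of the endoplasmic reticulum.

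**Figure D5:**
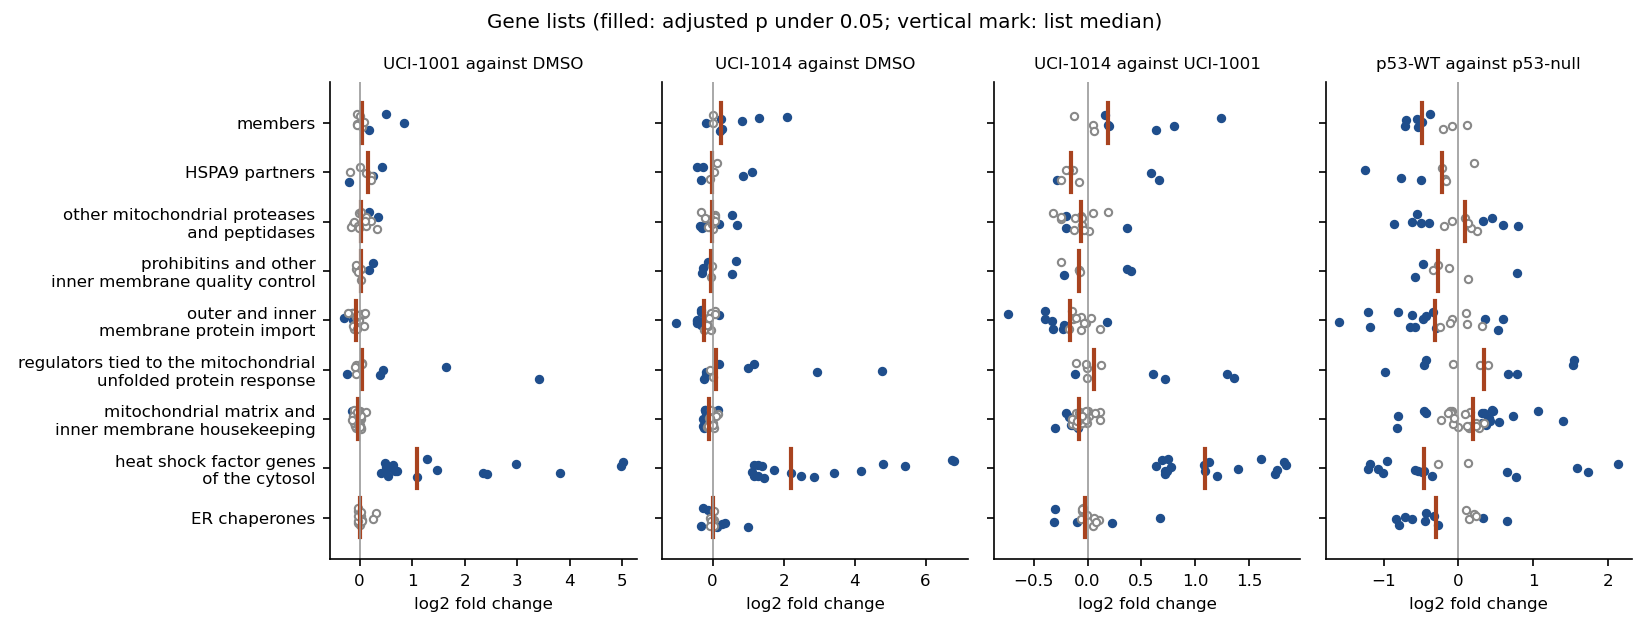
Log2 fold changes of the genes of each list (rows, with the 9 genes as members on top) in the 4 comparisons (panels, each with its own horizontal scale), filled where the adjusted p was under 0.05, with the list median as a vertical mark. The cytosolic heat shock genes lie wholly above 0 with both compounds, at medians of 1.10 and 2.22, while the import genes have a median of -0.23 with UCI-1014.

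Over the 6 TOV-112D libraries, the log2 CPM of HSPD1 was most like that of FNIP1 (Pearson r = 0.9997), ZSWIM6, PAPOLA, FBXO11 and FXR1 (0.9993), among 9880 genes at 10 CPM or more. HSPE1 took place 132 (r = 0.996), YME1L1 367 (0.991) and HSPA9 764 (0.978), and CLPP ran opposite (-0.887). Over the 6 Saos-2 libraries the most alike of 9552 genes were TTF1, PIAS1, MTMR12, BAG2 and RAD1 (0.9992 to 0.9991), with HSPA9 at place 586 (0.985) and HSPE1 at 2263 (0.922). The points of each correlation are the libraries of 3 treatment groups or of 2 lines, which share those groups, so the values describe these libraries and no p is given.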

How the data were processed

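RNA-seq counts of the 9 genes were analysed in 12 libraries. The authors quantified reads against GRCh38 with kallisto 0.48.0 and deposited whole-number counts per gene, and for each library the estimated counts and TPM of every transcript; tool names come from the submitters' processing notes, which also name DESeq2 1.38.3. Rows of the deposited counts with the same symbol were summed here. edgeR 4.0.16 (R 4.3.3; TMM scaling, filterByExpr, quasi-likelihood test, Benjamini-Hochberg adjustment over all genes tested) was fitted once per cell line, after a test on simulated data. CPM values use the TMM library sizes. TPM values were summed per gene through GENCODE 44, and rounded estimated counts were tested per transcript. Alternatives used DESeq2 1.42.0 and limma 3.58.1 on log2(TPM + 0.5) of genes at a mean of 1 TPM or more. Intervals are 2 SE. Members, lists and tests were chosen with earlier results of these data known. In each list and comparison, up to 3 genes were named, those with the largest log2 fold change among genes at an adjusted p under 0.05 whose groups did not overlap; others are named beside them by their role. The 5 genes most like HSPD1 were ranked by Pearson r. The level of the targeted gene is not reported here.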

Additional observations from a re-analysis of the deposited data

How the results depend on the processing

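The sign of every fold change of the 9 genes that was called with all libraries was kept under each alternative: RLE scaling, no filter on low counts, rows kept by identifier, DESeq2, limma on TPM, a replicate block, 1 fit of all 12 libraries and leaving out each library. At the study's own thresholds (an absolute log2 fold change over 1 with an adjusted p under 0.05 for the compounds, an adjusted p under 0.001 for p53) the counts of genes called went from 3 to 0 with UCI-1001, from 7 to 2 (HSPD1 and HSPE1) with UCI-1014, from 6 to 1 (HSPD1) in UCI-1014 against UCI-1001 and from 6 to 3 (HSPD1, HSPA9, LONP1) in p53-WT. In 1 fit of all 12 libraries 3 were called with UCI-1014 (21.7% of all genes) and 3 in UCI-1014 against UCI-1001 (5.93%), and limma on TPM called 3 in the latter (16.5%). In p53-WT the fit of all 12 called 7 (TRAP1 added, 66.2%) and limma on TPM 8 (TRAP1 and DNAJA3 added, 62.1%). Leaving out each library gave 2 to 3 with UCI-1001 (6.54% to 17.4% of all genes), 5 to 7 with UCI-1014 (34.8% to 45.5%), 5 to 6 in UCI-1014 against UCI-1001 (20.7% to 26.1%) and 6 to 7 in p53-WT (59.0% to 67.4%). Limma on TPM moved the median of all genes by -0.22 in p53-WT; relative to that median (chosen after seeing the data) HSPD1 was at -0.69 and HSPE1 at -0.43. Same-numbered libraries were not paired in the main fits. Their deviations correlated at 0.06, -0.03 and -0.16 in TOV-112D and at 0.14, 0.09 and 0.07 in Saos-2. Differently numbered libraries of the 2 Saos-2 lines gave -0.18 to 0.13. In TOV-112D they gave the same values with the sign turned, as 2 libraries per group force. Whether same-numbered libraries shared a batch was not tested. With the replicate block 3, 7, 5 and 6 genes were called in the 4 comparisons (12.5%, 44.5%, 27.4% and 68.7% of all genes). The crossed pairing of UCI-1014 with UCI-1001, added after seeing the data, called 6 (35.1%). With UCI-1014 the SE was 0.07 for CLPX and 0.06 for CLPP, which have few counts, against 0.03 for HSPA9 and 0.04 for HSPD1.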
